A study of Oryza sativa with 3 samples.

Results

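Metallothionein genes were followed in leaf blade, node and stem, 3 tissues of rice (Oryza sativa). Metallothioneins are small proteins rich in cysteine, whose thiol groups bind copper, zinc and other metals, and plant members are grouped into types by the arrangement of their cysteines. They are known for buffering metal ions and for scavenging reactive oxygen. The node, the joint of the grass stem where vascular bundles branch and leaves attach, is known as a site where minerals are handed from one set of bundles to another.

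The members were the genes whose deposited description contained the word metallothionein and whose row held a single identifier. Such genes numbered 12, against 51597 genes with a single identifier in all 3 tables. Of the 12, 10 had a row of their own in every tissue. The other 2, LOC_Os01g05585 and LOC_Os01g05650, were separate in node but shared 1 merged row in leaf blade and in stem. A metallothionein gene described in other words was not counted, and the sums and shares below hold only for genes so described. Very abundant genes described only as an expressed protein were outside the rule, such as LOC_Os01g10400, the gene with the highest level in leaf blade, at 28013 FPKM there and 6989 in node. The deposited descriptions give no symbol and no type except for LOC_Os05g11320, which is described as metallothionein-like protein 3B.

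Each tissue was represented by a single paired-end library of total RNA, and the node sample was nodes I and II. All 3 groups were rice grown at 29 °C with 12 h of light and 12 h of darkness in a greenhouse or a growth chamber. The sources used here do not give the cultivar, genotype, age or hour of harvest, or whether plants were pooled. The submitters deposited FPKM (fragments per kilobase of transcript and per library size) for each gene, with an interval. The scale is per length, so that levels of different genes can be set side by side. How well length was accounted for was not tested, and for LOC_Os03g17870 the FPKM per fragment differed widely between tissues, as given below. Summed over all rows, the intervals imply 39880000 fragments in leaf blade, 39960000 for node and 43160000 for stem. They were taken to reflect counting error alone. Without replicates, differences between tissues could not be tested, and intervals that do not overlap say nothing about the spread between plants. In whole tissues, a lower level from fewer cells of a type and from less RNA per cell cannot be told apart.

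The libraries were checked against known tissue genes. The 14 genes for chlorophyll-binding antenna proteins summed to 14859 FPKM in leaf blade, 1048 in the node and 6227 in the stem. The meristem homeobox gene OSH1 (LOC_Os03g51690) had 0.192 FPKM in the leaf blade, 131 in the node and 19.6 in the stem. A related homeobox gene, OSH15 (LOC_Os07g03770), had 0.284, 145 and 411 FPKM in the same order of tissues. The silicon transporter gene LSI3 (LOC_Os10g39980) had 0.146, 116 and 51.0 FPKM. The leaf blade library was thus the richest in antenna transcripts, the node library in OSH1 and LSI3, and the stem library in OSH15.

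Transcripts of the genes described as metallothioneins held the largest share of the library in node and the smallest in leaf blade. Among these genes, a different one led in each tissue. The 10 genes with a row of their own had a summed FPKM of 5723 in leaf blade, 46566 for node and 12624 for stem. The sums amounted to 0.613%, 4.62% and 1.32% of the FPKM summed over all rows of each library. The node sum was 8.14 times that of leaf blade and 3.69 times that of stem, and the stem sum was 2.21 times that of leaf blade. With the locus of LOC_Os01g05585 and LOC_Os01g05650 added in each tissue, the shares were 0.765%, 4.89% and 1.51%. Other rows overlap that locus, so these shares may hold transcripts of other genes. The order of tissues holds only for the genes so described. LOC_Os01g10400, described only as an expressed protein, had 28013 FPKM in leaf blade, and LOC_Os05g02070, described likewise, had 29822 in node. The former alone exceeded the leaf blade sum of the 10 genes. Whether they are metallothionein genes cannot be taken from their descriptions. Were such genes counted, the order of tissues and the leading genes could change.

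The sum over the 10 genes was made up of few abundant genes and a low remainder. Abundant genes described only as an expressed protein are outside these shares. In node, LOC_Os01g74300 held 60.8% of the sum over the 10 genes and LOC_Os05g11320 held 39.0%. In stem the same genes held 33.4% and 59.8%. In leaf blade LOC_Os11g47809 held 60.4%, LOC_Os05g11320 held 31.5% and LOC_Os01g74300 held 5.90%. The 2 most abundant members of each tissue made up 91.9% of that sum in the leaf blade, 99.8% in the node and 93.2% in the stem. In every tissue, 2 of the 10 genes were at 1000 FPKM or more.

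**Figure D1:**
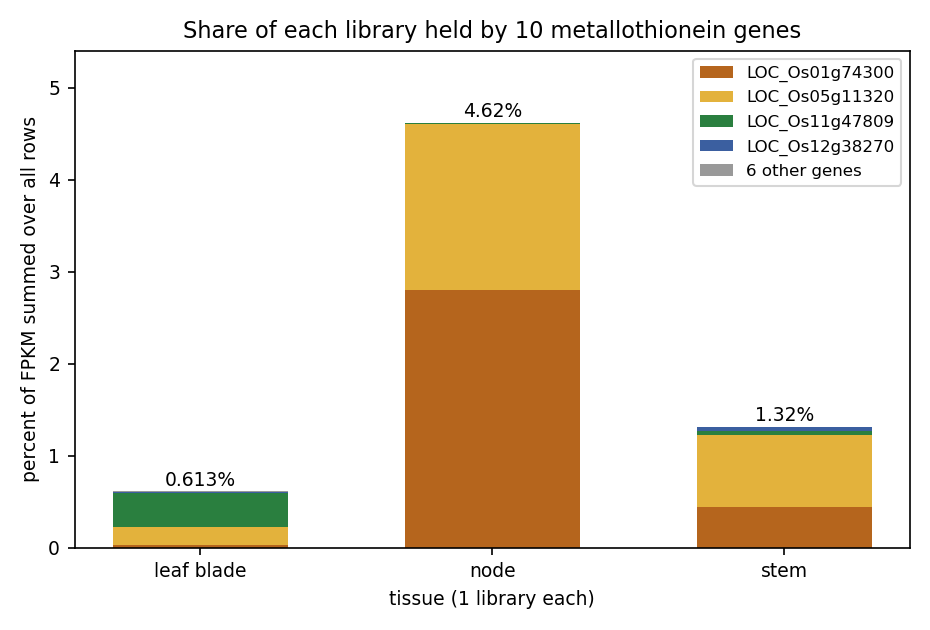
Stacked bars give, for 1 library per tissue, the percent of the FPKM summed over all rows that was held by 10 metallothionein genes, with the 4 most abundant shown apart and the 6 others in grey. The node bar reaches 4.62% and is made almost wholly of LOC_Os01g74300 and LOC_Os05g11320, the stem bar reaches 1.32%, and in the leaf blade bar of 0.613% LOC_Os11g47809 is the largest segment.

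LOC_Os01g74300 (chromosome 1, 43046955 to 43047961), described as a putative metallothionein, was the member with the highest level in node. It had 338 FPKM in leaf blade (interval 331 to 344), 28298 in node (28234 to 28362) and 4216 in stem (4193 to 4240). Node was highest and leaf blade lowest, and no intervals overlapped. The FPKM was 83.8 times as high in node as in leaf blade, 12.5 times as high in stem as in leaf blade, and 6.71 times as high in node as in stem. It ranked 289 among 53154 genes with a single identifier in leaf blade, 2 among 53179 in node and 11 among 53427 in stem. The gene ranked 1 in node, LOC_Os05g02070, at 29822 FPKM, is described only as an expressed protein.

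LOC_Os05g11320 (chromosome 5, 6393880 to 6396096), the metallothionein-like protein 3B gene, was abundant in all 3 tissues. It had 1804 FPKM in leaf blade (1782 to 1825), 18174 in node (18103 to 18246) and 7543 in stem (7500 to 7586). The order of the tissues was that of LOC_Os01g74300, with smaller steps. Node was 10.1 times leaf blade and 2.41 times stem, and stem was 4.18 times leaf blade. The gene ranked 32 in the leaf blade, 3 in the node and 4 in the stem, where it was the most abundant member.

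LOC_Os11g47809 (chromosome 11, 28827676 to 28828513), a putative metallothionein gene, ran in the opposite order. It had 3455 FPKM in leaf blade (3431 to 3480), 65.0 in node (61.5 to 68.6) and 449 in stem (440 to 458). The level in leaf blade was 53.1 times that in node and 7.69 times that in stem, and the level in stem was 6.91 times that in node. No intervals overlapped. It ranked 18 in the leaf blade, 2197 in the node and 231 in the stem.

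LOC_Os12g38270 (chromosome 12, 23501361 to 23502386), also a putative metallothionein gene, was highest in stem. It had 95.8 FPKM in leaf blade (91.7 to 99.98), 26.9 in node (24.6 to 29.2) and 397 in stem (389 to 405). The level in stem was 14.7 times that in node and 4.14 times that in leaf blade, and the level in leaf blade was 3.56 times that in node. No intervals overlapped. Stem was the highest tissue for this gene, unlike the 3 more abundant ones described above.

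**Figure D2:**
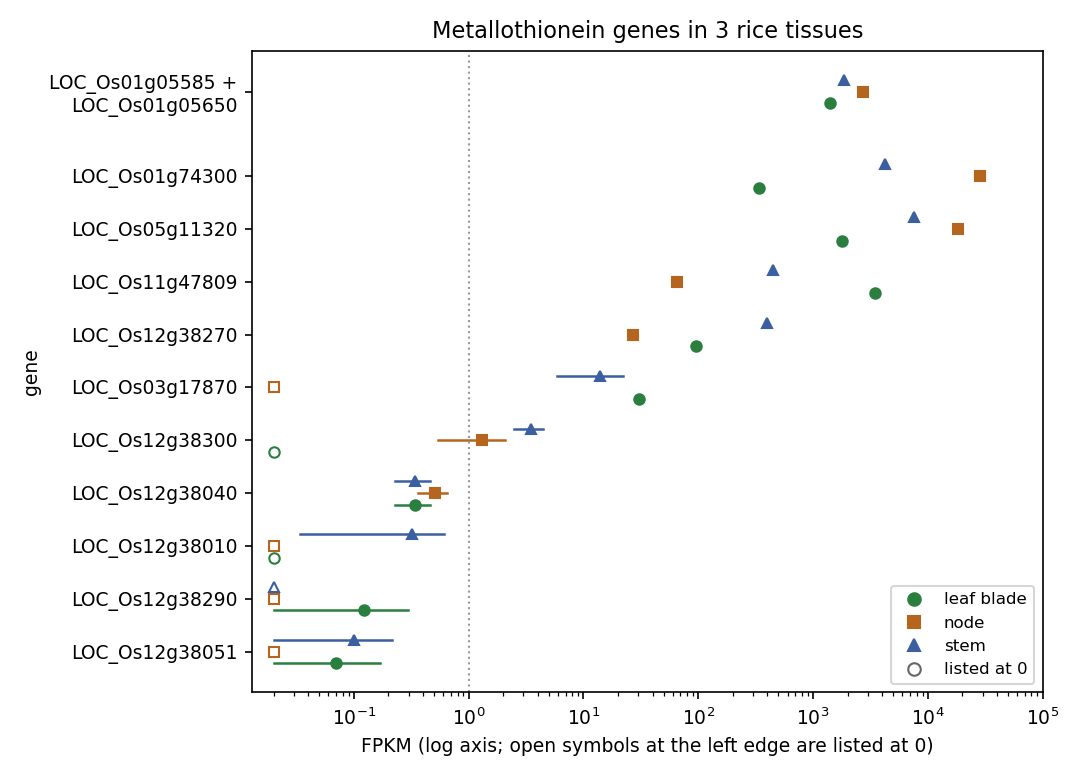
Each symbol is the FPKM of a metallothionein gene in 1 library (log axis), with the deposited interval as a line and open symbols where a gene is listed at 0; the top entry is the locus of LOC_Os01g05585 and LOC_Os01g05650, and the dotted line marks 1 FPKM. LOC_Os01g74300 and LOC_Os05g11320 are highest in node, LOC_Os11g47809 in leaf blade and LOC_Os12g38270 in stem, and the 4 lowest genes stay under 1 FPKM.

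LOC_Os03g17870, a putative metallothionein gene on chromosome 3, was higher in leaf blade than in stem by FPKM and by fragments, but by very different amounts. It had 30.4 FPKM in leaf blade (28.2 to 32.6), was listed at 0 in node, and had 13.9 in stem (5.89 to 22.0). Its deposited locus was 9957266 to 9958363 in leaf blade, a span of 1098 bases, but 9957429 to 9958013 in node and stem, a span of 585 bases. The implied fragments were 736 in leaf blade and 12.0 in stem. The FPKM in leaf blade was thus 2.18 times that in stem, while its share of fragments was 66.4 times as large. The FPKM per implied fragment was 0.0413 in leaf blade and 1.16 in stem, a wider difference than that of the spans, and its cause was not tested. A value listed at 0 may be a failed estimate, so no fold or log2 difference against node is printed for this gene, and the calls it takes part in are named as such below.

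The fragments ran closer to the FPKM for the 4 more abundant genes, whose loci were the same in every table. For LOC_Os01g74300, LOC_Os05g11320, LOC_Os11g47809 and LOC_Os12g38270, the log2 ratio of FPKM exceeded that of the fragment shares by 0.05 to 0.17 over the 12 ratios between tissues. LOC_Os12g38270 and LOC_Os05g11320 lay close to 4-fold in stem versus leaf blade. Their FPKM ratios were 4.14 and 4.18, and the ratios of their fragment shares were 3.96 and 3.95.

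**Figure D3:**
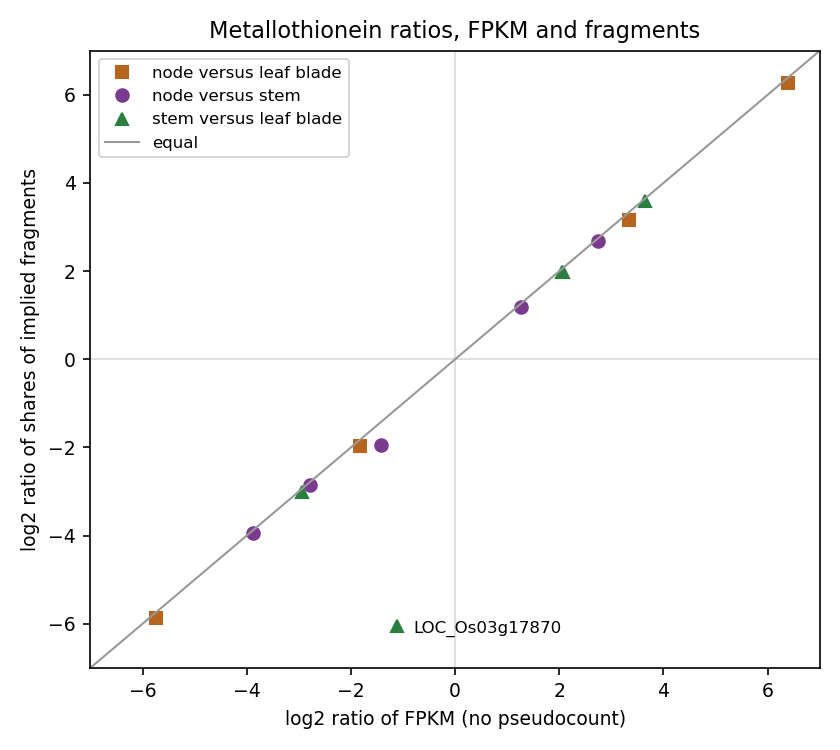
For metallothionein genes above 0 in both tissues of a comparison, the log2 ratio of FPKM without a pseudocount is plotted against the log2 ratio of shares of implied fragments, with a line where the measures are equal. LOC_Os03g17870 in stem versus leaf blade lies far off the line, at -1.12 by FPKM and -6.05 by fragments, and LOC_Os12g38300 in node versus stem lies at -1.41 and -1.95.

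The locus of LOC_Os01g05585 and LOC_Os01g05650 on chromosome 1 added a further abundant signal. The merged row of both had 1419 FPKM in leaf blade (1404 to 1434) and 1853 in stem (1828 to 1878). In node, LOC_Os01g05650 (2665387 to 2695129) had 2747 FPKM (2724 to 2770) and LOC_Os01g05585 (2665412 to 2666458) was listed at 0. The node span of LOC_Os01g05650 covers the whole of LOC_Os01g05585, so the fragments of the pair cannot be divided between them. The merged rows have no description. The leaf blade row spans 29674 bases and overlaps 4 other rows, all above 0. The stem row spans 29727 bases and overlaps 5, all above 0. For LOC_Os01g05650 the node row spans 29743 bases and overlaps 6, with 4 above 0. How much of the signal came from metallothionein transcripts was not tested. Per 1000000 implied fragments of the library, the locus had 914 in the leaf blade, 1443 in the node and 522 in the stem. Node was highest by both measures, whereas the order of leaf blade and stem turned between FPKM and fragments. Since the rows do not hold the same genes in each table, no 4-fold call was made for this locus.

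Of the 10 genes, 6 lie on chromosome 12 within 164 kb, and they differed widely in level. Only LOC_Os12g38270 of these 6 passed 5 FPKM in any tissue. LOC_Os12g38300 was listed at 0 in leaf blade and had 1.30 FPKM in node (0.540 to 2.06) and 3.46 in stem (2.47 to 4.45), on 11.7 and 49.0 implied fragments. Its deposited span also differed, at 652 bases in the leaf blade, 861 in the node and 921 in the stem. The neighbouring LOC_Os12g38290 had 0.122 FPKM in leaf blade, on 2 implied fragments, and was listed at 0 in node and stem.

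At the other end of the region the levels stayed under 1 FPKM. LOC_Os12g38040, described as a metallothionein family protein, had 0.344 FPKM in leaf blade (0.228 to 0.460), 0.507 in node (0.365 to 0.648) and 0.343 in stem (0.230 to 0.456). The 3 intervals overlapped, so no order of the tissues is given. LOC_Os12g38051 had 0.0697 FPKM in leaf blade and 0.1004 in stem, with overlapping intervals, and was listed at 0 in node. LOC_Os12g38010 had 0.321 FPKM in stem, on 5 implied fragments, and was listed at 0 in leaf blade and node.

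The spacing of the 6 genes fell into 2 groups. LOC_Os12g38010, LOC_Os12g38040 and LOC_Os12g38051 were separated by gaps of 23.1 and 3.68 kb. A gap of 109.9 kb with 18 other genes followed, and then LOC_Os12g38270, LOC_Os12g38290 and LOC_Os12g38300, separated by 10.1 and 1.67 kb. Of the 21 other genes with a single identifier in the region, 11 reached 1 FPKM in some tissue. Genes in the gap differed in their order of tissues. LOC_Os12g38210, described as spotted leaf 11, had 61.6 FPKM in the leaf blade, 47.9 in the node and 124 in the stem, which is the order of LOC_Os12g38270. LOC_Os12g38170, an osmotin gene, stood at 694 FPKM in the leaf blade, 0.773 in the node and 0.926 in the stem, and LOC_Os12g38140, described as an expressed protein, had 0.0680, 58.4 and 1.53. Near-identical copies could exchange fragments, and the similarity of these members to each other was not tested.

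**Figure D4:**
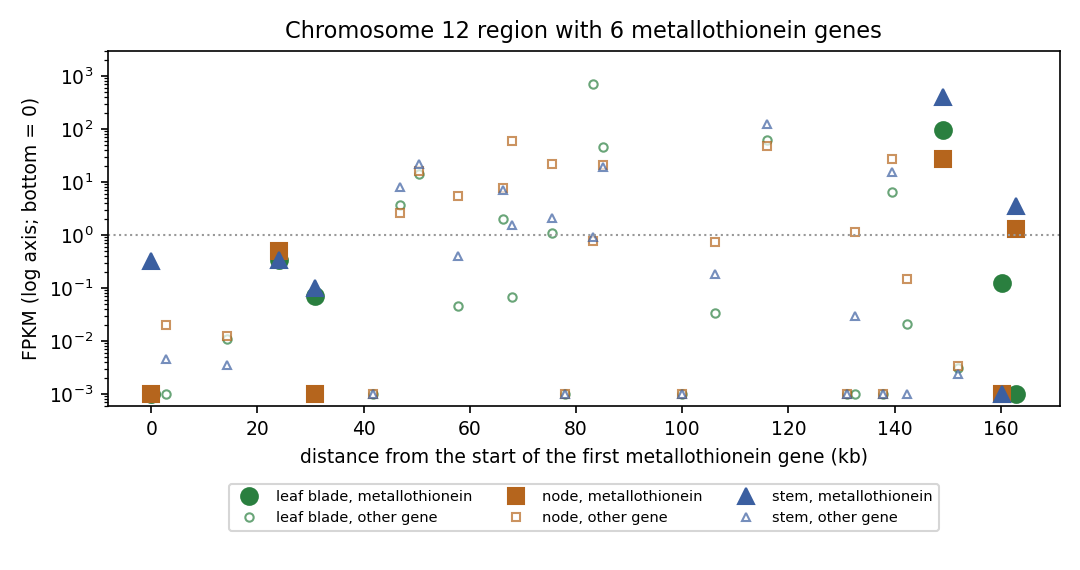
FPKM (log axis, with values of 0 at the bottom) is plotted against distance from the start of LOC_Os12g38010 for the 27 genes with a single identifier in the region of chromosome 12, with metallothionein genes as large filled symbols and other genes as small open ones. The first 3 metallothionein genes lie under 1 FPKM, and LOC_Os12g38270, near 149 kb, is the highest of the 6 in all 3 tissues.

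Counts over the list describe only the members that passed a filter of 1 FPKM in at least 1 tissue. Of the 10 genes, 6 passed, LOC_Os12g38300 only by its node and stem values and LOC_Os03g17870 only by its leaf blade and stem values. The other 4, LOC_Os12g38010, LOC_Os12g38040, LOC_Os12g38051 and LOC_Os12g38290, were not compared. Calls of higher or lower needed a difference of 4-fold on the log2(FPKM + 1) scale, where the pseudocount shrinks the differences of low genes. The 3 comparisons share libraries and are not independent.

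In node versus leaf blade, 2 of the 6 genes were higher and 2 were lower by 4-fold or more. Among all 20097 genes compared, 12.3% were higher and 7.29% lower. The log2 differences of the higher genes were 6.39 for LOC_Os01g74300 and 3.33 for LOC_Os05g11320. LOC_Os11g47809 was lower, at -5.71. The other lower call was LOC_Os03g17870, and it rests on a node value listed at 0. LOC_Os12g38270, at -1.79, was within 4-fold, and so was LOC_Os12g38300, listed at 0 in leaf blade. The median of the 6, values listed at 0 included, was -0.30, beside 0.13 over all genes compared, and -0.05 over the 10 genes without the filter. The median of the 6 lies midway between LOC_Os12g38270 and LOC_Os12g38300, which differ in direction, so it describes no single member.

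In stem versus leaf blade, 4 of the 6 genes were higher and 1 was lower, beside 6.43% higher and 6.52% lower among all genes compared. LOC_Os01g74300 differed by 3.64, LOC_Os05g11320 by 2.06 and LOC_Os12g38270 by 2.04. The fourth higher call, LOC_Os12g38300, rests on a leaf blade value listed at 0. That gene passed the filter only by its node and stem values, its span differed between tissues, and it enters the median below. LOC_Os11g47809 was lower, at -2.94, and LOC_Os03g17870, at -1.07, was within 4-fold. LOC_Os05g11320 and LOC_Os12g38270 were near the threshold of 2. By shares of implied fragments, 1 gene was higher and 2 were lower, beside 1390 higher and 1443 lower among all 20097 genes compared. The median of the 6 was 2.05, beside -0.02 over all genes compared, and 0.22 over the 10 genes without the filter.

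In node versus stem, 1 of the 6 genes was higher and 3 were lower, beside 6.82% higher and 2.3% lower among all genes compared. LOC_Os01g74300 was higher, at 2.75. LOC_Os12g38270, at -3.83, and LOC_Os11g47809, at -2.77, were lower. The remaining lower call, LOC_Os03g17870, rests on a node value listed at 0, and it was lost by shares of implied fragments and with a pseudocount of 5 FPKM. LOC_Os05g11320, at 1.27, and LOC_Os12g38300, at -0.96, were within 4-fold. The median of the 6 was -1.86, beside 0.16 over all genes compared, and -0.27 over the 10 genes without the filter. The sum over the 10 genes was thus 3.69 times as high in node as in stem, while more of the compared members were lower in node than higher.

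Genes with the most similar pattern were looked for among the 1618 genes that had a specific description and reached 100 FPKM in some tissue. The measure was the distance between log2(FPKM + 1) profiles over the 3 tissues, each centred on its own mean. With 3 tissues many genes can lie close. Nearest to LOC_Os01g74300 was LOC_Os10g22590, of the pollen Ole e I allergen and extensin family, at a distance of 0.25, with 2.999 FPKM in the leaf blade, 261 in the node and 42.5 in the stem. The next 4 were the homeobox gene LOC_Os05g03884, the heavy-metal-associated domain gene LOC_Os11g05010, the lipase gene LOC_Os06g06250 and the homeobox gene LOC_Os03g51690. Their distances were 0.30 to 0.36. These 4 had only 0.103 to 0.557 FPKM in the leaf blade and 109 to 131 in the node. At such low leaf blade levels the pseudocount shrinks the difference between tissues, so their closeness depends on it.

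For LOC_Os05g11320 the nearest gene was LOC_Os03g01880, with a lysine decarboxylase domain, at a distance of 0.019, with 37.9 FPKM in the leaf blade, 393 in the node and 164 in the stem. The Aux/IAA gene LOC_Os03g53150, the trehalose-6-phosphate synthase gene LOC_Os02g54820, the heavy metal-associated domain gene LOC_Os02g32814 and the AP2 domain gene LOC_Os04g52090 followed, at 0.083 to 0.15. For LOC_Os11g47809 the nearest was the receptor kinase gene LOC_Os07g43570, at 0.24, with 111 FPKM in the leaf blade, 1.44 in the node and 12.2 in the stem. After it came the fructose-1,6-bisphosphatase gene LOC_Os03g16050, the enolase gene LOC_Os06g04510, a second fructose-1,6-bisphosphatase gene, LOC_Os04g16680, and the cytochrome P450 gene LOC_Os09g36080, at 0.32 to 0.50. These genes and LOC_Os07g43570 had only 1.44 to 4.23 FPKM in the node. There too the pseudocount shrinks the difference between tissues, so their closeness depends on it.

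Other genes that bind or detoxify metals were described by lists chosen from their descriptions. Proteins with a heavy metal-associated domain, a fold that carries copper and other metals in chaperones and pumps, had 15 of 43 members compared higher and 4 lower in node versus leaf blade, or 34.9% and 9.30%, beside 12.3% and 7.29% among all genes compared. In stem versus leaf blade 11 were higher and 4 lower, or 25.6% and 9.30%, beside 6.43% and 6.52%. In node versus stem 6 were higher and 1 lower, or 14.0% and 2.33%, beside 6.82% and 2.3%. Their medians were 1.30, 0.44 and 0.41 in the 3 comparisons, beside 0.13, -0.02 and 0.16 over all genes compared.

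The heavy metal-associated domain genes with the largest differences did not share an order of tissues. LOC_Os09g09830 had 306 FPKM in the leaf blade, 0.849 in the node and 1.37 in the stem, and was highest in leaf blade as LOC_Os11g47809 was. LOC_Os11g05010 had 0.257 FPKM in the leaf blade, 109 in the node and 11.1 in the stem, the order of LOC_Os01g74300. LOC_Os07g47480 had 0.174, 53.9 and 64.9 FPKM.

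Ferritins, which store iron, had 1 of 2 members higher in node and in stem than in leaf blade. Among all genes compared, 12.3% were higher in node and 6.43% in stem than in leaf blade. LOC_Os11g01530 had 41.7 FPKM in the leaf blade, 550.0 in the node and 442 in the stem. LOC_Os12g01530 had 78.6, 275 and 104 FPKM and was within 4-fold in all 3 comparisons. Both carry the description of ferritin-1, and near-identical copies could exchange fragments. Of 2 nicotianamine genes 1 was compared, the nicotianamine synthase gene LOC_Os07g48980, whose product makes a metal chelator. It had 4.40 FPKM in the leaf blade, 24.2 in the node and 13.7 in the stem. In node versus leaf blade it was higher by 4-fold or more, at a log2 difference of 2.22, as were 12.3% of all genes compared.

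The lists for oxygen radicals, copper chaperones and glutathione were short. The superoxide dismutase list held 6 genes, 1 of them a copper chaperone whose description names that enzyme. None of these 6 or of the 5 genes of glutathione synthesis and reduction passed 4-fold in the 3 comparisons. Among all genes compared, 80.4%, 87.1% and 90.9% did not pass it either (node and stem each versus leaf blade, then node versus stem), so these counts are near the background. Among the superoxide dismutase genes, LOC_Os05g25850, a mitochondrial one, had 143 FPKM in the leaf blade, 284 in the node and 321 in the stem, and LOC_Os06g02500, a chloroplast one, had 26.1, 9.70 and 17.5. Of 3 copper chaperone genes, LOC_Os02g55134, which serves cytochrome c oxidase, was lower in stem than in leaf blade, beside 6.52% of all genes compared. It had 42.6 FPKM in the leaf blade, 15.6 in the node and 6.79 in the stem. LOC_Os04g48410, the copper chaperone for superoxide dismutase, belongs to both lists and had 64.0, 41.7 and 76.7 FPKM, and LOC_Os09g25314 had 32.7, 35.6 and 33.5. Among the genes of glutathione, the redox peptide from which phytochelatins are made, the synthetase genes LOC_Os12g34380 and LOC_Os12g16200 had 20.8 and 38.2 FPKM in leaf blade, 39.3 and 24.4 in node, and 31.4 and 21.1 in stem. The glutathione reductase gene LOC_Os03g06740 had 17.3, 16.6 and 12.3 FPKM. No description contained the word phytochelatin, so that list was empty.

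**Figure D5:**
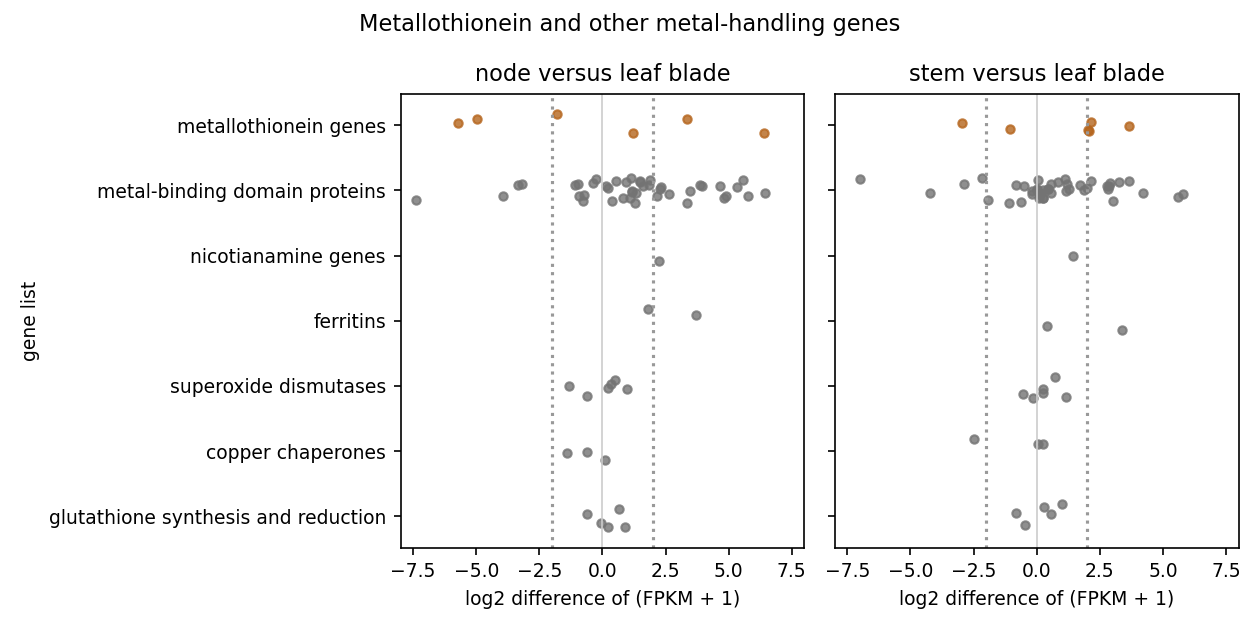
Each point is the log2 difference of (FPKM + 1) of a gene at 1 FPKM or more in some tissue, by list, in node versus leaf blade on the left and stem versus leaf blade on the right, with dotted lines at 4-fold. Vertical scatter only separates points. The 6 metallothionein genes run from -5.71 to 6.39 on the left, while all genes of the superoxide dismutase and glutathione lists lie between the dotted lines.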

How the data were processed

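Each tissue had 1 library, grouped by the labels. Per the file headers, the authors deposited an FPKM value per gene together with interval bounds, a gene description and its locus. The submitters' processing notes name TopHat. No source used here states the quantification program, genome build, annotation release or strand. The members and lists were chosen with earlier results of these data known.

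Genes with a single-identifier row present once per library numbered 51597. The 20097 reaching 1 FPKM in some tissue were compared by log2(FPKM + 1), with calls at 4-fold. With 1 library per tissue no test was possible. All members are named, as are up to 3 genes of each other list (at 10 FPKM or more, with the largest difference) and the 5 genes nearest in pattern. The implied fragments, n, follow from taking the upper bound as 2 × FPKM / √n above the FPKM. Below 200 fragments, this n came within 0.02 of a whole number for 49.2%, 49.2% and 49.7% of rows in leaf blade, node and stem (chance gives 4%). It was therefore used as an approximate number of fragments, for shares and as a measure of depth, and not as an exact count. Coordinates have 1 added to each start, inferred from the 42.5% to 42.8% of loci whose end minus start is divisible by 3. The RefSeq gene table matched 0 of 12 identifiers. Calculations used Python 3.11.15, numpy 2.4.6 and pandas 2.3.3 and were tested on simulated data. The simulated intervals were built by the formula given above, so that test could not show whether the deposited intervals follow it.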

Additional observations from a re-analysis of the deposited data

Results flagged for a closer look

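A signal lay in rows outside the comparisons between tissues. The merged row of LOC_Os01g05585 and LOC_Os01g05650 had 1419 FPKM in leaf blade and 1853 FPKM in stem. In node the pair had separate rows, so the merged rows entered no 4-fold call. Groups of 1 library allow no check for a sample far from the others and no test of a difference between effects.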

How the results depend on the processing

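No paired analysis was possible because each tissue had 1 library. The number of members 4-fold higher in stem versus leaf blade was 4, and became 2 with a pseudocount of 5 FPKM and 1 with shares of implied fragments, by which 2 rather than 1 were lower. Among all 20097 genes compared, 1292 were higher, or 582 with a pseudocount of 5 and 1390 with fragments. Those lower numbered 1310, or 1443 with fragments. The other counts of members stayed within 1.5 times under all 7 alternatives. The median in node versus leaf blade, -0.30, was -1.79 with a filter at 5 FPKM, 0.75 with a pseudocount of 0.1, -0.66 with a pseudocount of 5 and -0.76 with fragments. That in node versus stem, -1.86, was -2.77 with the filter at 5 FPKM, -0.27 with no filter, -1.17 with a pseudocount of 5 and -0.54 with fragments. That in stem versus leaf blade, 2.05, was 0.22 with no filter, 1.38 with a pseudocount of 5, 2.13 with libraries rescaled to equal medians and 1.53 with fragments. The filters change which members enter a median. In node versus leaf blade, the main median lies midway between LOC_Os12g38270 and LOC_Os12g38300. The latter is listed at 0 in leaf blade, and its difference changes with the pseudocount and with fragments. Causes of the other moves were not tested. The share of the 10 genes in leaf blade, node and stem was 0.301%, 2.60% and 0.633% of implied fragments. It was 0.709%, 5.41% and 1.63% of the FPKM of rows with a single identifier. With the locus of LOC_Os01g05585 and LOC_Os01g05650 added, an alternative chosen after seeing the data, it was 0.765%, 4.89% and 1.51%. Merged rows described as metallothionein numbered 0. No member's difference changed sign. Of 18 differences, fragments ended 4 calls and added 1, a pseudocount of 5 ended 3, and a pseudocount of 0.1 added 1; the other 4 settings changed none, and the filter at 5 FPKM kept 15 of the 18. Both rescalings moved the median of all genes by under 0.12, from 0.16 to 0.04 in node versus stem with equal medians. Depth limits the members under 1 FPKM, at 51.0 implied fragments or fewer.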
